A study of Vitis vinifera with 40 samples.

Results

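Late cotyledonary somatic embryos of grapevine (*Vitis vinifera* "Malvasia Istriana") were compared with the seedlings into which they germinate. The comparison rests on 8 of the 40 RNA-seq libraries of the series, 5 biological replicates of cotyledonary stage 2 (C2) and 3 of the seedling stage (S), chosen by their stage labels alone. C2 embryos had developed on medium without hormones, whereas S seedlings were grown on gibberellin, and both were kept in long days. Per the study's methods the germination medium also held the auxin IAA, so that stage, gibberellin and auxin changed together and cannot be told apart. All embryos were induced from immature anthers, no genotype differed between the groups, and each sample pooled 50 to 70 individuals. The study's methods give a single read length for all samples. Its library table implies shorter mapped reads for C2 than for S, and whether these stages were sequenced separately is not stated. A difference in mapped read length, if there was one, cannot be told apart from stage within this pair either.

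Germination turns a storage organ into a photosynthesising plant: reserves are used, the root and shoot axis elongate, and plastids become chloroplasts. Gibberellin promotes this by removing DELLA proteins, nuclear repressors of growth, whereas abscisic acid holds the embryo of a seed in its dormant state. Per the study, somatic embryos develop without such dormancy. Gibberellin and auxin also loosen cell walls so that cells can expand.

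Total counts per library lay between 18125988 and 30759636 in C2 and between 17242549 and 20011261 in S. Libraries within C2 were unlike each other: over the genes tested, the median SD of the log2 normalised level was 0.305 in C2 (n = 5) and 0.211 in S (n = 3). C2 replicates 1 and 2 were the closest pair, with a median difference of 1.07-fold per gene, and replicates 4 and 5 were next with 1.14-fold. Between these pairs, and between replicate 3 and the other C2 libraries, it was 1.23-fold to 1.37-fold, whereas the S libraries differed by 1.17-fold to 1.19-fold. Each library was placed on a scale from 0 (mean of the other C2 libraries) to 1 (mean of the other S libraries), using the genes called without it. The medians were 0.22 and 0.20 for C2 replicates 1 and 2, 0.04 for replicate 3, and -0.11 and -0.05 for replicates 4 and 5, against 0.75 to 1.19 in S. By this median over genes, C2 replicates 1 and 2 lay nearest to the seedlings. Single genes went either way. For LAR1, which rose, replicates 1 and 2 were nearest, and for MLO6, which fell, replicate 5 was.

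Of 29971 genes in the table, 21593 had enough counts to be tested by edgeR's quasi-likelihood test, and 5970 of them (27.6%) differed between C2 and S at an adjusted p below 0.05 (Benjamini-Hochberg over all genes tested). Expression was higher in S for 3482 genes (16.1% of the genes tested) and lower for 2488 (11.5%). The median log2 fold change, S over C2, was 1.11 in the first group and -1.03 in the second, and -0.04 over all genes tested. More than a 2-fold rise was fitted for 1975 genes and more than a 2-fold fall for 1293, together 15.1% of the genes tested. Beyond 8-fold there were 210 and 113 genes. The libraries of the 2 stages did not overlap for 37.0% of all genes tested, called or not. The number of calls was lower without any single S library: it was 3416, 3911 and 2659 without S replicates 1, 2 and 3, and between 4893 and 6105 without any single C2 library.

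Names are at hand for 45 genes of the table, of which 44 were tested. Of these, 10 rose, 5 fell and 29 did not pass the test. That is 34.1%, beside 27.6% of all genes, and their median log2 fold change was -0.01. Values are CPM (read counts scaled to 1000000 counts per library), adjusted by TMM factors of the 8 libraries. The labels do not say that replicates came from separate cultures, so the p-values measure the spread between these pooled samples.

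LHCA2, a chlorophyll-binding antenna protein of photosystem I, measured 9.17, 7.57, 10.5, 1.41 and 0.93 CPM in C2 replicates 1 to 5 and 40, 53.2 and 74.4 CPM in S. Every seedling library lay above every embryo library, and C2 replicates 4 and 5 were far below the other 3. The log2 fold change was 3.25 ± 0.68 (SE, adjusted p = 0.0091), and 2.59 (adjusted p = 9.11e-04) with C2 replicates 4 and 5 left out. On a scale normalised over all 40 libraries the stage mean of LHCA2 was 0.37 CPM in the dark-grown C1 embryos, 7.10 in C2, 73.8 in S, 600 in seedlings with epicotyl (EP) and 960 in juvenile plants (JP). PHYE, the red and far-red light receptor phytochrome E, went the other way, with 26.4, 25.5, 30.9, 43.3 and 34.8 CPM in C2 and 10.8, 22.3 and 14.6 CPM in S. It fell by 1.02 ± 0.26 on the log2 scale (SE, adjusted p = 0.0204), with no overlap between the stages. GOX measured 222 ± 30.5 CPM in C2 (SD, n = 5) and 292 ± 14.7 CPM in S (SD, n = 3), which did not pass the test (adjusted p = 0.0907).

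Among the hormone genes, GAI1 encodes a DELLA protein, the class of growth repressor whose breakdown gibberellin triggers. Its transcript stood at 26.0, 24.2, 13.9, 17.1 and 12.7 CPM in C2 and at 44.8, 36.8 and 60.5 CPM in S. All 3 seedling libraries exceeded the highest embryo library. GAI1 rose 2.52-fold, with a log2 fold change of 1.34 ± 0.27 (SE, adjusted p = 0.0074), and kept its call without any single library. RRA1, a type-A response regulator that damps cytokinin signalling, measured 46.4, 40.7, 36.0, 29.0 and 13.1 CPM in C2 and 16.1, 14.4 and 8.79 CPM in S, so that C2 replicate 5 overlapped the seedlings. Its log2 fold change was -1.34 ± 0.39 (SE, adjusted p = 0.0306), and the call was lost without any one of 6 libraries (C2 replicates 1, 2 or 3, or S replicates 1, 2 or 3; highest adjusted p 0.112). The type-B response regulators RRB3 and RRB5, which activate cytokinin-responsive genes, had log2 fold changes of -0.58 and -0.47 and did not pass the test (adjusted p = 0.121 and 0.0782). NCED2, an enzyme that commits carotenoids to abscisic acid synthesis, held 22.9, 23.6, 13.0, 8.88 and 4.02 CPM in C2 and 6.18, 6.31 and 6.31 CPM in S. The seedlings lay inside the range of C2, between replicates 4 and 5. NCED2 did not pass the test (log2 fold change -1.21 ± 0.51, SE, adjusted p = 0.102), and it did with C2 replicate 5 left out (-1.45, adjusted p = 0.0168). It also passed with DESeq2 (adjusted p = 0.0425) and with replicate number as a block (adjusted p = 0.00737). With C2 replicates 1 and 2 left out it did not (-0.47, adjusted p = 0.375).

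LAR1, which makes catechin units of condensed tannins, measured 15, 16.4, 11.1, 3.93 and 4.38 CPM in C2 and 30.1, 37.5 and 37.3 CPM in S. The embryo libraries again split into replicates 1 to 3 and replicates 4 and 5, and all lay below the seedlings. The log2 fold change of LAR1 was 1.79 ± 0.44 (SE, adjusted p = 0.0175). The call was lost without S replicate 2 (adjusted p = 0.0513) or S replicate 3 (adjusted p = 0.0548). FAOMT, a methyltransferase acting on anthocyanins, averaged 1.02 ± 0.28 CPM in C2 and 4.61 ± 2.56 CPM in S (SD, n = 5 and 3), with S replicate 3 at 7.55 CPM and the other 2 at 2.92 and 3.35 CPM (log2 fold change 2.16 ± 0.36, SE, adjusted p = 0.0038). MYBC2-L1, a MYB repressor of flavonoid genes, was too low to be tested, with 0.05 to 0.29 CPM in C2 and 0.34 to 0.76 CPM in S. OMT3.1 had a log2 fold change of -0.59 ± 0.20 (SE, adjusted p = 0.0543).

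THI1-2, of the thiazole branch of vitamin B1 synthesis, was at 2.69, 1.97, 3.58, 0.82 and 1.02 CPM in C2 and 7.57, 14.5 and 10.8 CPM in S. It rose 5.5-fold with no overlap (log2 fold change 2.46 ± 0.44, SE, adjusted p = 0.0049). GS rose from 21.6 ± 3.93 to 39.4 ± 5.79 CPM, the malate dehydrogenase gene MDH from 112 ± 27.4 to 188 ± 16 CPM, and ATP8 from 293 ± 37.9 to 442 ± 60.4 CPM (SD, n = 5 in C2 and 3 in S). The calls of MDH and ATP8 were lost without any single S library, and that of ATP8 also without C2 replicate 1 or 2 (adjusted p between 0.0522 and 0.104). Among transporters, the inositol transporter INT2 rose from 2.29 ± 0.72 to 5.33 ± 1.66 CPM and ZIP3, of a zinc transporter family, from 13.6 ± 2.40 to 26.9 ± 8.81 CPM. Without S replicate 2 for INT2 and S replicate 3 for ZIP3 the adjusted p was 0.0725 and 0.0688. INT3 and the sucrose transporters SUC11 and SUC12 had log2 fold changes of 0.22, -0.20 and -0.26, none of which passed the test. SAMDC, an enzyme of polyamine synthesis, measured 97.4, 92.8, 71.9, 152 and 209 CPM in C2 and 178, 270 and 217 CPM in S. C2 replicate 5 lay among the seedlings, and the log2 fold change of 0.83 ± 0.33 did not pass the test (SE, adjusted p = 0.0856). It passed without C2 replicate 5 (1.09, adjusted p = 0.0197).

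Genes of stress and protein turnover made up the remaining falls. MLO6, of a membrane protein family known for powdery mildew susceptibility, measured 117, 120, 93.9, 71.6 and 50.9 CPM in C2 and 27.4, 31.2 and 3.96 CPM in S. No embryo library was as low as the highest seedling library, and S replicate 3 stood far below the other 2. Its log2 fold change was -2.12 ± 0.59 (SE, adjusted p = 0.0267), and the call was lost without S replicate 1 (adjusted p = 0.0626). HIR, of the hypersensitive induced reaction family, fell from 106 ± 22.3 to 63.7 ± 13.6 CPM. CUL4, the scaffold of a ubiquitin ligase that acts in light signalling, fell from 34.3 ± 5.60 to 21.4 ± 2.82 CPM (SD, n = 5 and 3). The call of CUL4 was lost without S replicate 1 or 3 (adjusted p = 0.0639 and 0.0814). That of HIR was lost without C2 replicate 4 or 5 or any S library (adjusted p up to 0.154), and that of PHYE without S replicate 1 or 3 (adjusted p = 0.0804 and 0.0915). The calcium sensor CBL02, the kinases CIPK01, CIPK04 and CIPK16, the cold regulator ICE1, the autophagy gene ATG6 and the alternative oxidase AOX2 did not pass the test, with log2 fold changes between -0.47 and 0.29.

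AP1, MADS4 and AG are MADS-box genes known from flower development. AP1 stood at 8.04 CPM in C2 replicate 3, between 0.49 and 1.35 CPM in the other C2 libraries and between 0.14 and 0.66 CPM in S. MADS4 was at 4.36 CPM in the same C2 library and between 0.19 and 0.86 CPM in all others. AG lay between 0.07 and 1.74 CPM in C2 and between 0.19 and 1.07 CPM in S. None of these 3 genes passed the test (adjusted p = 0.0925, 0.117 and 0.875). AP1 passed with DESeq2 (adjusted p = 0.0174) and in the model of all 40 libraries (0.0397), and MADS4 with DESeq2 (0.0456). C2 replicate 3 also held the most genes, 29098 with a count at equal depth against 25708 to 27087 in the other C2 libraries. With this library left out, 6105 genes were called. Without it AP1 had a log2 fold change of -1.33 in place of -2.65 (adjusted p = 0.123).

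**Figure D1:**
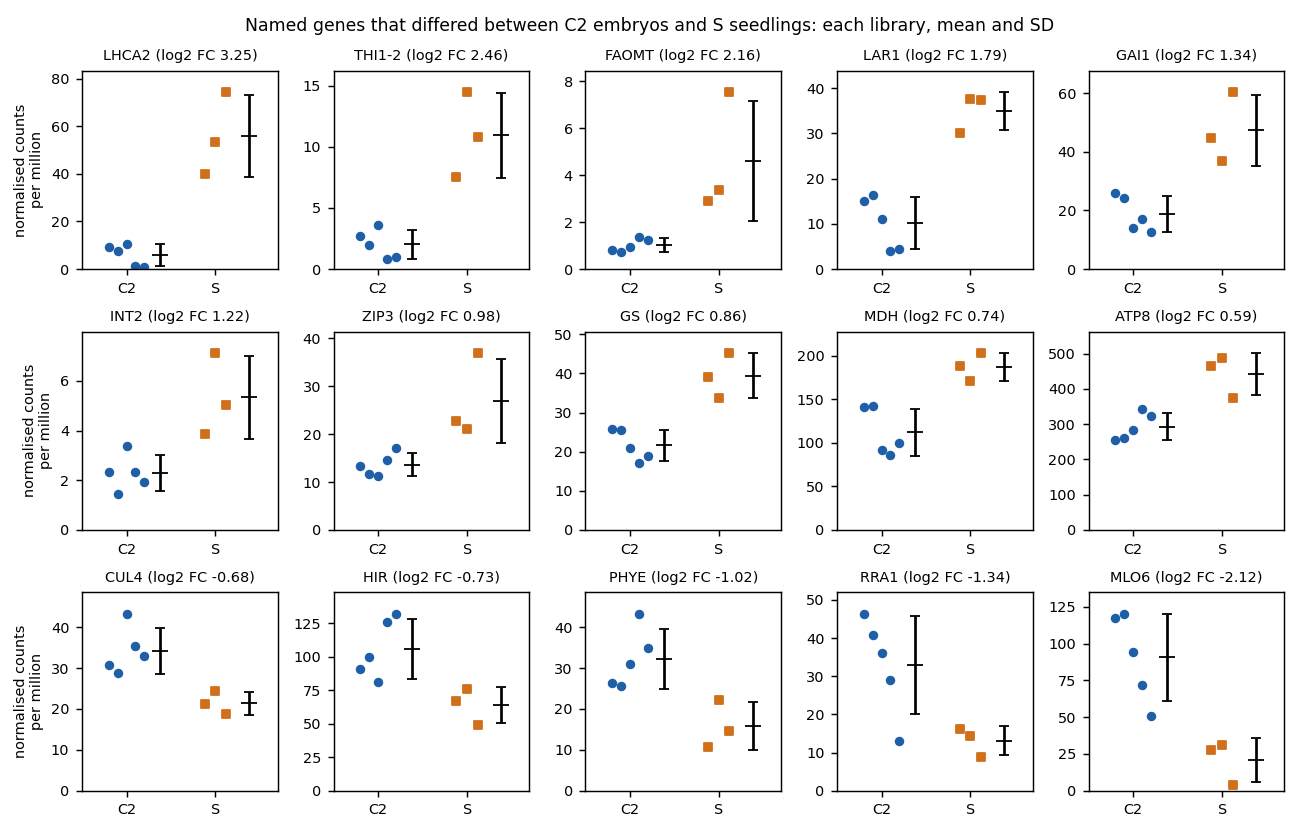
CPM values of the 15 named genes that passed the test, in each C2 library (blue circles, n = 5, replicates 1 to 5 from left to right) and each S library (orange squares, n = 3), with the mean and SD in black. The panels run from LHCA2 (log2 fold change 3.25) to MLO6 (-2.12), and RRA1 is the gene whose stages overlap.

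The part of the study's annotation table at hand gives GO terms for 1075 genes, of which 876 were tested. Entries of 770 genes are shortened, so that membership rests on the visible terms. Of the 876 genes, 146 rose and 84 fell, or 26.3% in all, with a median log2 fold change of -0.01. Counts of each list below are to be read beside the 16.1% and 11.5% of all genes called higher and lower. The 10 largest changes per direction described below were picked among genes with a call and no overlap of libraries. Their calls and lack of overlap were thus fixed by that choice.

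Of 24 tested cell wall genes 7 rose and none fell, or 29.2% called, beside 27.6% of all genes in either direction and 16.1% higher. The median log2 fold change was 0.38 (18 of 24 above 0), beside -0.04 over all genes. VIT_09s0002g04020, a water transport gene that also carries cell wall and vacuole terms, was at 592, 578, 270, 130 and 112 CPM in C2 and at 1865, 1041 and 2597 CPM in S. The lowest seedling library exceeded the highest embryo library, and C2 replicates 4 and 5 were the lowest of all. Its log2 fold change was 2.45 ± 0.57 (SE, adjusted p = 0.0145; 0.0571 without S replicate 3). VIT_04s0023g02570, annotated as a peroxidase of lignin synthesis and seed germination, rose from 7.06 ± 3.28 to 33.0 ± 10.5 CPM. VIT_04s0008g01150, with the activity of beta-fructofuranosidase, the enzyme that splits sucrose, rose from 5.04 ± 1.53 to 14 ± 2.85 CPM. VIT_01s0011g06250, annotated for cell wall and aminoglycan metabolism, rose from 20.8 ± 3.89 to 74.4 ± 17.8 CPM (SD, n = 5 and 3). The other 3 that rose were VIT_10s0003g05420, VIT_16s0098g01910 and VIT_18s0001g05030, with log2 fold changes of 1.04, 3.09 and 0.73. VIT_18s0001g05030 is among the 24 genes of the whole table that were higher in S but lower in EP than in C1 (-1.85, adjusted p = 0.0435).

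Of the 6 tested gibberellin genes 1 rose and 2 fell (median log2 fold change -0.54). VIT_03s0091g00290, a transcription factor gene annotated as a positive regulator of gibberellin signalling, measured 22.1, 20.8, 32.4, 30.0 and 26.6 CPM in C2 and 8.76, 12.4 and 8.07 CPM in S. All embryo libraries lay above all seedling libraries, and the log2 fold change was -1.44 ± 0.22 (SE, adjusted p = 0.0024). VIT_12s0028g02130, a kinase gene with gibberellin synthesis terms, fell from 31.8 ± 5.07 to 19.4 ± 1.5 CPM, whereas VIT_17s0000g06210, with terms for gibberellin signalling and sugar response, rose from 1.39 ± 0.63 to 5.27 ± 3.85 CPM (SD, n = 5 and 3).

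Of 20 auxin genes 4 rose and 1 fell (median 0.07), and of 5 cytokinin genes 2 rose and none fell (0.15). The auxin genes that rose include VIT_14s0060g00470, with transport terms (log2 fold change 3.28 ± 0.67, SE, adjusted p = 0.0081), and VIT_14s0060g01280, annotated as a proton pump driven by pyrophosphate. The latter measured 20.1, 22.9, 17.1, 32.0 and 26.2 CPM in C2 and 75.0, 54.7 and 77.6 CPM in S (1.54 ± 0.21, SE, adjusted p = 0.0017). Of the cytokinin genes, VIT_07s0104g01260, a monooxygenase gene with brassinosteroid terms, rose from 2.52 ± 0.35 to 11.1 ± 3.27 CPM (SD, n = 5 and 3), with 7.42 CPM in the lowest seedling library and 3 CPM in the highest embryo library.

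Of 20 abscisic acid genes 1 rose and 4 fell (median 0.01). VIT_07s0031g01980, a transcription factor gene with abscisic acid and defense terms, had 35.5, 39.3, 20.4, 28.3 and 24.2 CPM in C2 and 4.18, 4.03 and 2.77 CPM in S. The seedling libraries were tightly grouped far below all embryo libraries (log2 fold change -3.02 ± 0.28, SE, adjusted p = 4.37e-04). VIT_04s0023g03420, a protein kinase gene, fell from 121 ± 12.2 to 62.8 ± 28.6 CPM (SD, n = 5 and 3), and lost its call without any of 6 libraries (C2 replicates 1 to 4, S replicates 1 or 3; adjusted p between 0.0525 and 0.0786). VIT_03s0132g00090 and VIT_16s0022g02210 fell from 2.47 and 3.77 CPM to 0.44 and 1.23 CPM. The gene that rose, VIT_03s0063g01870, carries terms for cold acclimation and went from 31.3 ± 6.14 to 86.6 ± 19.1 CPM.

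Ethylene genes (1 up and 1 down of 6) and jasmonic acid genes (1 up and 2 down of 7) were few. Of 17 water deprivation genes 2 rose and 5 fell (median -0.32), of 15 salt stress genes 2 rose and 4 fell (-0.35), and of 7 heat genes none rose and 3 fell (-0.42). Heat genes that fell were VIT_01s0011g06300, VIT_08s0040g00870 and VIT_11s0016g02010, by 0.61, 0.70 and 1.15 on the log2 scale. VIT_05s0020g04780, a transcription factor gene of the water deprivation list, stood at 46.1, 48.6, 41.1, 20.8 and 11.4 CPM in C2 and 4.38, 3.59 and 0.38 CPM in S. C2 replicate 5 was closest to the seedlings but did not reach them (log2 fold change -3.61 ± 0.74, SE, adjusted p = 0.0084). Defense genes went both ways, with 12 up and 5 down of 51 (median 0.12).

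Of 101 chloroplast genes 19 rose and 5 fell (median 0.12), and of 23 thylakoid genes 5 rose and 2 fell (0.15). Of 26 genes of the response to light 5 rose and 3 fell (-0.15), and of 3 photosynthesis genes 2 rose (1.05). Called in either direction were 23.8%, 30.4%, 30.8% and 66.7% of these lists, beside 27.6% of all genes. Summed over the 122 chloroplast members, expression was 3880 to 4765 CPM in C2 and 5070 to 6753 CPM in S. The sum over all 1075 genes with GO terms was 25302 to 31083 CPM in C2 and 30211 to 33797 CPM in S. Whether the chloroplast sum rose beyond that was not tested. The thylakoid sums overlapped, with 632 to 898 CPM in C2 and 718 to 801 CPM in S, as did those of the response to light, with 479 to 702 and 472 to 496 CPM. VIT_05s0020g02130, annotated with the enzyme that opens plastid isoprenoid synthesis (1-deoxy-D-xylulose-5-phosphate synthase), measured 17.9, 17.3, 17.6, 9.93 and 10 CPM in C2 and 35.1, 62.4 and 49.2 CPM in S. This was a 3.36-fold rise with no overlap (log2 fold change 1.75 ± 0.27, SE, adjusted p = 0.0026). VIT_19s0015g01370, known only by its chloroplast and nucleus terms, rose from 22.3 ± 6.94 to 59.0 ± 23.1 CPM (SD, n = 5 and 3).

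Of 50 transcription factor genes 12 rose and 8 fell (40%, beside 27.6% of all genes; median -0.19), and their summed level was 1173 to 1453 CPM in C2 and 862 to 1017 CPM in S. Of these, VIT_19s0014g04940 fell from 198 ± 16.8 to 68.0 ± 35.4 CPM and the calmodulin-binding VIT_04s0069g00920 from 89.3 ± 14.9 to 40.6 ± 9.07 CPM (SD, n = 5 and 3). Flavonoid genes (1 up and 1 down of 3) and phenylpropanoid genes (1 up of 6, median 1.04) were few. Within them VIT_13s0067g03820, annotated as a chalcone isomerase, an early step to all flavonoids, measured 55.2, 56.2, 36.6, 20.8 and 20.5 CPM in C2 and 109, 113 and 107 CPM in S. Like LAR1, it was lowest in C2 replicates 4 and 5 and did not overlap between stages (log2 fold change 1.53 ± 0.34, SE, adjusted p = 0.0119).

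Cell cycle genes changed in both directions (4 up and 5 down of 36, median -4.02e-04), and of 13 DNA replication genes 2 fell and none rose (-0.56). Translation (4 up and 3 down of 35) and ribosome genes (3 up and 2 down of 25) had medians of 0.11 and 0.17. Lipid metabolism (8 up and 7 down of 53), carbohydrate metabolism (6 up and 5 down of 38), hydrolysis of O-glycosyl compounds (4 up and 2 down of 15) and proteolysis (5 up and 3 down of 44) had medians between -0.14 and 0.07. Of 5 lipid droplet genes 1 fell, VIT_11s0016g00440, from 31.3 ± 2.67 to 16.8 ± 1.94 CPM (SD, n = 5 and 3). VIT_18s0001g05060, annotated as a phosphoglycerate mutase of glycolysis, was steady within the stages, with 34.6 to 41.0 CPM in C2 and 12.9 to 15.3 CPM in S (log2 fold change -1.36 ± 0.13, SE, adjusted p = 5.14e-04). VIT_11s0016g05070 of phospholipid synthesis and VIT_01s0127g00360 with ubiquitin ligase terms fell by 1.06 and 0.92 on the log2 scale. Of 8 seed germination genes 3 rose and 1 fell, of 18 embryo development genes 3 rose and 1 fell, of 15 root system genes 4 rose and none fell, and neither of the 2 plant-type cell wall biogenesis genes was called. As the lists hold few genes and share members, they are given as counts beside the 16.1% and 11.5% of all genes called higher and lower.

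**Figure D2:**
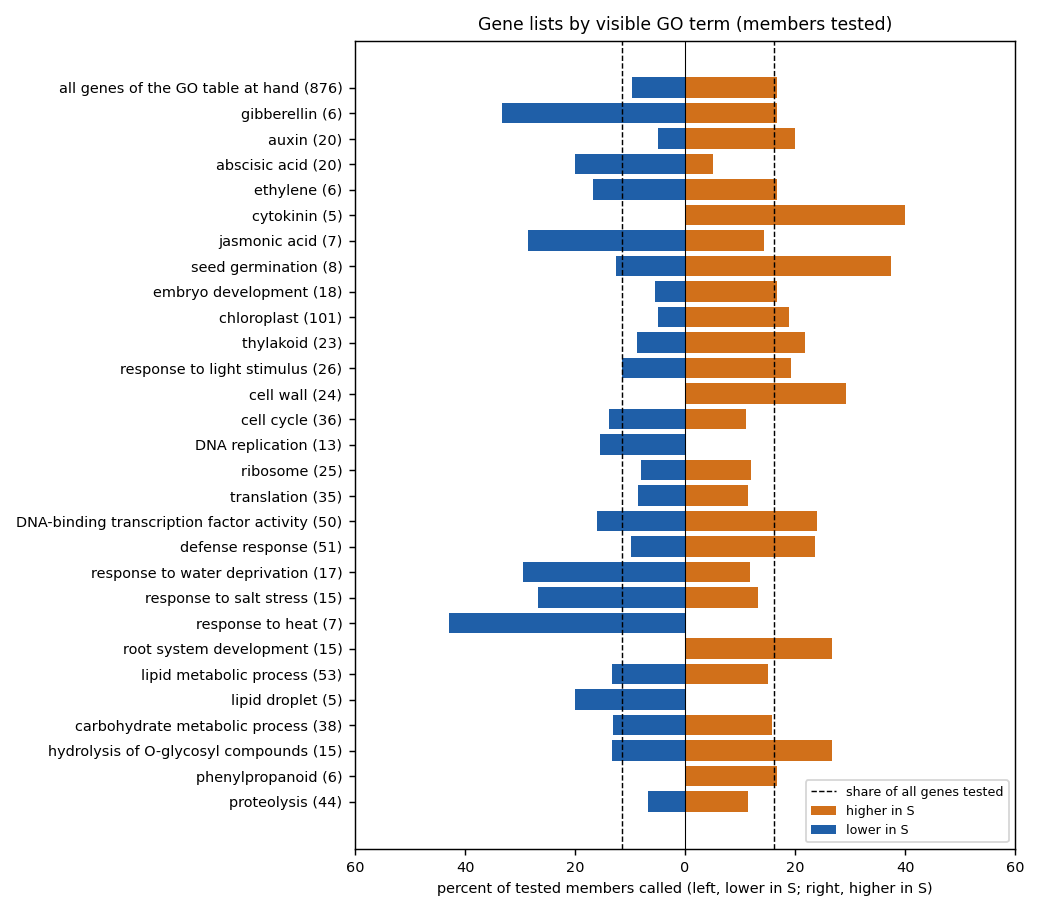
Percentage of the tested members of each gene list that were called higher in S (orange, to the right) or lower in S (blue, to the left), for lists with at least 5 tested members, whose number stands in parentheses. Dashed lines mark the 16.1% and 11.5% of all genes tested, and cell wall, root system development, cytokinin and phenylpropanoid have bars to the right only.

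Among the 3688 genes with a call, no overlap of libraries and at least 10 CPM in a stage, the 2 largest changes in each direction concerned genes without a name or function in the sources used here. VIT_04s0008g04090 was at 0.20, 0.05, 0.58, 0 and 0 CPM in C2 and at 37.7, 17.3 and 48.7 CPM in S. VIT_06s0061g00120 was between 0.06 and 0.62 CPM in C2 and at 57.8, 19.0 and 33.2 CPM in S. Both were close to absent from every embryo library, and their log2 fold changes were 7.83 ± 0.75 and 7.19 ± 0.55 (SE, adjusted p = 5.11e-04 and 3.10e-04). In the other direction, VIT_01s0011g02360 measured 18.9, 18.5, 12.1, 2.03 and 0.51 CPM in C2 and 0, 0.34 and 0.10 CPM in S, a log2 fold change of -6.00 ± 1.45 (SE, adjusted p = 0.0160; 0.0590 and 0.0678 without S replicates 1 and 3). VIT_06s0004g03090 fell from 412, 487, 173, 84.3 and 86.8 CPM to 6.11, 4.03 and 3.73 CPM (log2 fold change -5.76 ± 0.79, SE, adjusted p = 0.0017). On the scale of all 40 libraries its stage means were 313 CPM in C2 and 681 CPM in EP and at most 26.9 CPM in each of the other 10 stages. The study's library table implies shorter mapped reads for C2 and EP, though its methods give a single read length. This pattern cannot be told apart from such a difference in mapped reads, if there was one.

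Some changes came in runs of neighbouring identifiers. The longest run of genes called in one direction held 15 genes, from VIT_16s0100g00800 to VIT_16s0100g00960 on chromosome 16, all lower in S (median log2 fold change -3.02). It was followed, after a single identifier too low to be tested, by a run of 6 genes that ends with VIT_16s0100g01040, chosen for description after its values were seen. Summed over these 22 identifiers, expression was 702, 717, 609, 542 and 394 CPM in C2 and 112, 108 and 55.6 CPM in S, a mean 6.46 times higher in the embryos. The runs were picked from genes called lower in these libraries, so the direction of all 21 tested genes was fixed. They fell by 1.40 to 3.73 on the log2 scale. The stages did not overlap for any of them, beside 37.0% of all genes tested, which that choice also favours. In the fits without any single library, which reuse the same values, 20 or 21 of them were called. In the model of all 40 libraries it was 16, and in the test against a fold change of 2 it was 14. The most abundant, VIT_16s0100g00860, measured 122, 123, 104, 77.0 and 52.1 CPM in C2 and 10.4, 7.42 and 6.02 CPM in S.

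The second longest run, 7 genes from VIT_10s0042g00830 to VIT_10s0042g00890 on chromosome 10, also fell. Its sum was 147, 153, 125, 135 and 105 CPM in C2 and 17.2, 10.7 and 12.0 CPM in S. VIT_10s0042g00840 fell from 28.2 ± 2.46 to 1.38 ± 0.32 CPM (SD, n = 5 and 3) and VIT_10s0042g00860 from 5.16 ± 0.91 to 0.15 ± 0.05 CPM, with log2 fold changes of -4.37 and -5.12 (adjusted p = 1.98e-05 and 1.95e-04). These genes carry no name in the sources used here. Neighbouring genes may be near-identical copies, and how reads that match several genes were counted is not stated. The split of counts between members is therefore uncertain, and whether their sum is less affected was not tested. On the scale of all 40 libraries the chromosome 16 sum was 546 to 919 CPM in C2, 75.0 to 142 CPM in S, 14.8 to 276 CPM in EP and 62.8 to 123 CPM in JP. It was as high as in C2 in H and T1, with 915 to 1084 CPM and 504 to 1678 CPM. In every other earlier stage it was lower than in C2. Among these it was 10.3 to 12.7 CPM in PG, 5.22 to 168 CPM in T2 and 141 to 525 CPM in C1. Over the whole table, runs of at least 3 genes numbered 99 for genes that rose and 47 for genes that fell.

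Another block, on chromosome 2, was far more abundant. The 17 identifiers from VIT_02s0012g00660 to VIT_02s0012g00820, taken after their values were seen, made up 5.04%, 6.77%, 6.57%, 3.79% and 4.88% of all counts in C2 and 2.35%, 1.58% and 1.92% in S. All seedling libraries were below all embryo libraries. Of 16 tested members 9 fell and 1 rose, and the 9 were 4 each without S replicate 2 or S replicate 3. In the model of all 40 libraries 1 member was called lower, and in the test against a fold change of 2 it was 0. VIT_02s0012g00670 alone fell from 25166 ± 9369 to 7980 ± 2350 CPM (SD, n = 5 and 3; log2 fold change -1.66 ± 0.38, SE, adjusted p = 0.0133), and its call was lost in the model of all 40 libraries (adjusted p = 0.133). The block sums of EP libraries were uneven, between 1903 and 101886 CPM on the scale of all 40 libraries, with 45568 to 103854 CPM in C2 and at most 34174 CPM in every other stage.

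**Figure D3:**
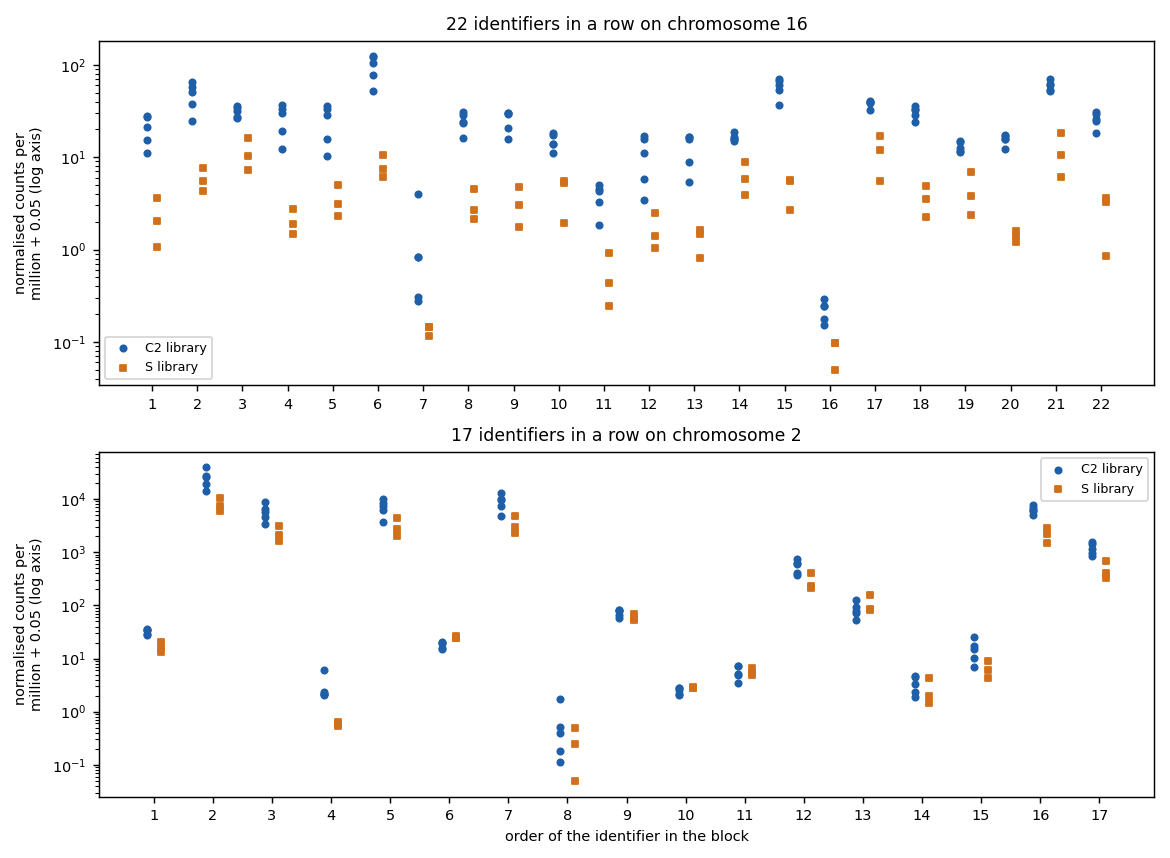
CPM plus 0.05 (log axis) of neighbouring identifiers in their order, for each C2 library (blue circles) and S library (orange squares). In the 22 identifiers of the chromosome 16 block all S points lie below the C2 points, and in the 17 of the chromosome 2 block the abundant members are lower in S and the others are mixed.

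A few genes took much of each library. The top 100 genes of each library held 49.1 ± 5.71% of the counts in C2 (SD, n = 5) and 45.3 ± 3.91% in S (SD, n = 3), a difference of -3.72 percentage points (exact two-sided permutation test, p = 0.393). The smallest p that 5 against 3 libraries allow is 0.0179. VIT_10s0003g04500 alone held 20.8%, 19.6%, 12.4%, 12.7% and 16.4% in C2 and 15.1%, 11% and 12.8% in S, which overlap, and VIT_12s0028g01130 held 7.11 ± 1.26% and 4.47 ± 0.61%. Neither passed the test. VIT_13s0019g02630 held 1.05%, 1.06%, 1.44%, 0.42% and 0.39% of the counts in C2 and 3.85%, 3.53% and 3.47% in S. This gene rose in every seedling library against every embryo library (log2 fold change 2.00 ± 0.48, SE, adjusted p = 0.0156). At 17242549 counts per library, 26934 ± 1350 genes had a count in C2 and 25790 ± 284 in S (exact permutation test, p = 0.179).

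Whether the changes recur was examined in libraries shared with neither stage, the dark-grown cotyledonary embryos C1 (n = 3, no hormones) and the seedlings with epicotyl EP (n = 5, gibberellin, long days). Here the mapped read lengths that the library table implies lie the other way round, with the shorter ones in EP. However, light differs between the groups as well. From C1 to EP, 21.1% of 22318 genes tested were higher and 14.0% lower. Of the genes that rose from C2 to S and were tested again, 2016 of 3441 (58.6%) were higher in EP and 24 (0.70%) were lower. Of those that fell, 1096 of 2376 (46.1%) were lower in EP and 26 (1.09%) were higher. Conversely, 42.8% of the genes higher in EP were among those higher in S, and 35.2% of the genes lower in EP were among those lower in S. Across the 20847 genes tested in both, the log2 fold changes had a Pearson's r of 0.67, as a description across genes, which are not independent.

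LHCA2, GAI1, LAR1, FAOMT, THI1-2, GS and MDH were higher in EP too, with log2 fold changes of 10.9, 2.45, 5.89, 3.75, 4.62, 3.09 and 1.09. The other 3 named genes that rose in S did not pass the test from C1 to EP: ZIP3 had a log2 fold change of 1.82 (adjusted p = 0.205), ATP8 of 0.07 (adjusted p = 0.89) and INT2 of -0.73 (adjusted p = 0.568). MLO6 and HIR were lower there (-3.54 and -0.76), while PHYE (-1.11, adjusted p = 0.0784), CUL4 (-1.01, adjusted p = 0.0820) and RRA1 (-0.26, adjusted p = 0.756) did not pass the test. The chromosome 16 and chromosome 10 blocks had median log2 fold changes of -1.94 and -3.12 in that pair. In the first, 2 of 19 tested genes were called lower, a share below the 14.0% of all genes, and in the second 2 of 5. The chromosome 2 block had a median of 1.05, with none of 17 tested genes called. Of the 26 genes lower in S and higher in EP, 9 had medians in C2 and in EP above those of all 10 other stages, VIT_06s0004g03090 among them. These genes were picked for C2 above S and EP above C1, so this pattern is partly built in. Its share among all genes was not counted.

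**Figure D4:**
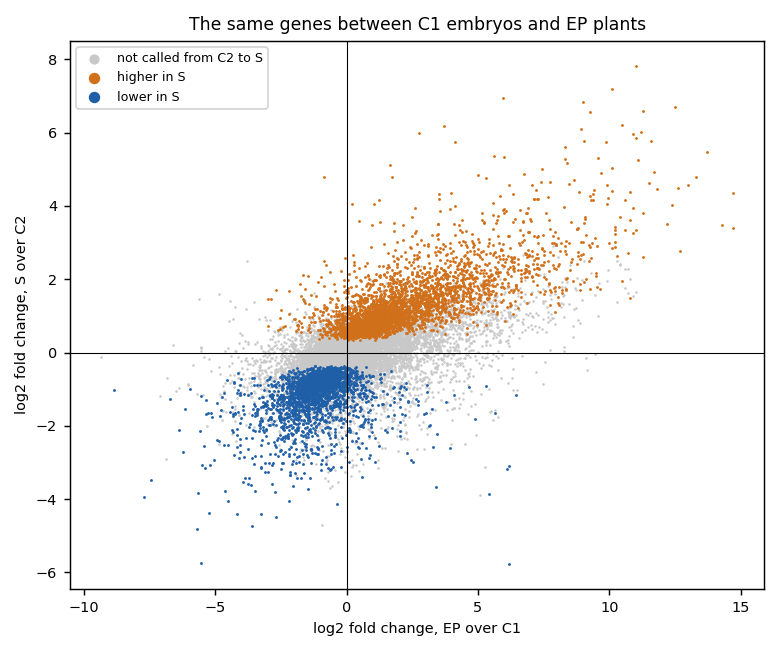
Log2 fold change between S and C2 (vertical axis) against that between EP and C1 (horizontal axis) for the 20847 genes tested in both pairs, which share no library. Genes higher in S (orange) lie mostly to the right, 58.6% of them called higher in EP, and genes lower in S (blue) mostly to the left, 46.1% of them called lower in EP.

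The calls were spread over the genome. Between 24.1% (chromosome 15) and 32.1% (chromosome 10) of the genes tested on each chromosome were called. Ages of genes, as phylostrata (the oldest clade in which a related gene is found), are at hand for 1998 genes. Of the 1591 tested among them 17.7% rose and 12% fell, with a median log2 fold change of 0.005. Of 709 tested genes that trace to the origin of cellular organisms, 18.2% rose and 11.3% fell. Of the 217 genes from the 4 youngest phylostrata, 15 to 18, only 102 were tested, of which 7.84% rose and 15.7% fell. Their median log2 fold change was -0.41, and this was the only one of 4 age groups in which falls outnumbered rises. Whether this goes with gene age or with low counts was not tested.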

How the data were processed

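RNA of 8 libraries (C2, n = 5; S, n = 3) was analysed, and C1 (n = 3) and EP (n = 5) served as a second pair. The authors depleted rRNA, sequenced paired-end reads on the NextSeq 500, mapped them with BBMap to the 12X assembly and deposited a table of raw counts for each open reading frame. Mapping used the standard settings of BBMap, and how multiply matching reads and strand were handled in counting is not stated. Groups and replicates came from the sample titles. The C2 and S libraries hold 17242549 to 30759636 counts. The study's tables name 45 genes, and 0 identifiers were matched in the RefSeq gene list at hand.

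Counts were tested with edgeR 4.0.16 in R 4.3.3 (quasi-likelihood, TMM, filterByExpr, Benjamini-Hochberg, threshold 0.05), using the libraries of each pair only. The test was tested on simulated data. Single values per library were compared by exact permutation tests (scipy 1.17.1). Named genes were those with a name in the study's tables, the 10 largest changes per direction among genes of 31 GO lists (adjusted p below 0.05, no overlap of libraries, at least 10 CPM in a stage), the 2 largest per direction over all genes by the same filter and the longest run of neighbours. Members of lists with few calls, single members of blocks, the other blocks and the most abundant genes were added after their values were seen. The lists, genes and tests were chosen with earlier results of these data known. Alternatives were DESeq2 1.42.0, its size factors in edgeR, no filter, 1 model of all 40 libraries, a replicate block, thinning, C2 replicates 1 and 2 summed, a test against 2-fold and leaving out each library. Leaving out C2 replicates 1 and 2, or 4 and 5, was added after seeing the data. No sequences or coordinates were used.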

Additional observations from a re-analysis of the deposited data

Results flagged for a closer look

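Of 79 genes with values in each library, 9 had a C2 library far from the other 4, by a gap of more than 0.71 of the range. Chance flags about 1 group in 20. C2 replicate 3 stood apart for 6 of them. AP1 was at 8.04 CPM there (others 0.49 to 1.35), MADS4 at 4.36 (0.23 to 0.86), SOS1, a sodium antiporter gene, at 119 (46.3 to 63.2) and OMT3.1 at 17.2 (10.2 to 11.1). MYBC2-L1 was at 0.29 CPM in it (0.05 to 0.12) and VIT_05s0020g01170, 1 of the 10 most abundant genes, at 9996 (11957 to 12490). In C2 replicate 4 SIRK, a potassium channel gene, was at 2.75 CPM (1.98 to 2.15). In C2 replicate 5 CIPK04 was at 16.7 CPM (11.3 to 12.3) and VIT_04s0023g03420 at 99.6 (124 to 130).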

How the results depend on the processing

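The count of calls from C2 to S was 5970, and the test against a fold change of 2 gave 579 (417 higher and 162 lower in S). Leaving out single libraries gave 2659 to 6105 calls, of which 1782 to 3494 were higher and 877 to 2611 lower. From C1 to EP it gave 4586 (without C1 replicate 3) to 8195, against 7825. DESeq2 gave 7546 calls from C2 to S and a nearly even split (51.9% higher, against 58.3%), and no filter gave 5051 (64.9% higher). The median log2 fold change of the genes tested was -0.22 and -0.18 there, against -0.04. Summing C2 replicates 1 and 2, the closest pair, gave 5377 calls, 5212 of them among the 5970. RRA1, ATP8 and VIT_04s0023g03420 lost the call in that fit (adjusted p between 0.0534 and 0.0636). With C2 replicates 1 and 2 left out 5681 genes were called, 4667 of them among the 5970, and with replicates 4 and 5 left out 6379, of which 4883. With 1 model of all 40 libraries 3822 of 4938 calls were shared. In it 9 named genes lost the call: GS, ZIP3, INT2, PHYE, CUL4, ATP8, VIT_04s0069g00920, VIT_11s0016g00440 and VIT_02s0012g00670 (adjusted p between 0.0536 and 0.266). The difference in genes with a count, S minus C2, was -1143 at equal depth and -1593 without thinning (exact permutation test, p = 0.179 and 0.0357). Without single libraries the difference was -1450 to -602 genes, and for the top 100 share -5.94 to -2.25 points.

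C2 and S share replicate numbers 1 to 3, which no label ties to a batch. Deviations from the stage means correlated by 0.16, -0.11 and 0.01 for the same numbers, and by -0.22 to 0.18 for the other pairs. The replicate block gave 4955 calls (2578 higher, 2377 lower) from C2 to S, 3851 of them shared with the fit without it, and 6953 from C1 to EP. Of the genes named here, 6 lost and 4 gained the call under it. No gene named here with a call changed direction under any alternative. Depth limits genes such as MYBC2-L1.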
